A study of Schizosaccharomyces pombe with 8 samples.

Results

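The comparison described here sets fission yeast cells that had recovered for 1 h at 30C from a heat shock against the same strains before the heat. It used 4 of the 8 arrays of the study, chosen by their labelled culture condition and paired within genotype. Fission yeast, Schizosaccharomyces pombe, is a rod-shaped unicellular eukaryote. The 2 strains are labelled opi10+ and opi10-, and the sources used here do not give how opi10 was altered in the second strain. Both were grown to mid-log phase in Edinburgh Minimal Medium, a synthetic medium, at 30C. The groups before heat were taken at that point, the groups at 43C after 1 h at 43C, and the recovery groups after a further 1 h or 3 h at 30C. Each strain and condition had 1 array, so each condition had 2 arrays, 1 of each strain. With no replicate within a strain and condition, the spread behind the p-values is how differently the 2 strains responded across conditions, together with noise. The labels do not say whether the 4 samples of a strain came from 1 culture, so that noise may be technical. No S. pombe probe set carried the name opi10, so the genotype labels could not be checked against the level of that gene.

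Cells that are heated make heat shock proteins, chaperones that bind unfolded proteins. In fission yeast the stress-activated kinase Sty1 and the transcription factor Atf1 also drive a general set of stress genes, while genes for growth are turned down. On return to a permissive temperature, protein synthesis, which consumes much of a growing cell's resources, has to be built up again, and this needs ribosomes, which are assembled in the nucleolus with the help of a large set of assembly factors. Division, respiration and nutrient uptake are other processes whose genes respond to stress in this yeast.

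Transcript levels of 2892 genes, of 2896 with an S. pombe probe set of their own, lay above the filter on low signals. The median deposited signal of the S. pombe probe sets before heat was 1004 in opi10+ and 922.4 in opi10-. At 1 h it was 988.9 and 1024. The arrays at 43C stood apart, with medians of 492.5 and 516.5. Signals are given below as deposited, in the order opi10+ then opi10-. Changes are differences of log2(signal + 16) after quantile normalization, which gives every array the same distribution, with the standard error from limma. A gene is said to have risen or fallen where its adjusted p from limma was under 0.05. On the deposited scale the median gene moved by 0.04 from before heat to 1 h, by 0.92 from 43C to 1 h and by -0.10 from 3 h to 1 h, so every difference from 43C is relative to the median gene.

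At 1 h of recovery 741 genes (25.6%) were above and 789 (27.3%) below their level before heat, 1530 of 2892 (52.9%) in all. These shares are the background for every count of list members that rose or fell. At least a 2-fold difference was seen in 100 of the genes that rose (3.46%) and 103 of those that fell (3.56%). The 2 strains changed in the same direction for 2404 of the 2892 genes, and for every one of the 1530 called genes. The latter is close to fixed by the test. Its spread is how far the strains disagree, so genes with opposite changes could hardly be called. For 1105 genes (38.2%) both arrays at 1 h lay above both arrays before heat, and for 1120 (38.7%) both lay below. The smallest change called was 0.23 upward and -0.23 downward on the log2 scale. Just inside the threshold lay uch1 at -0.27 with an adjusted p of 0.0496, next to ctt1, the catalase gene, at 0.79 with an adjusted p of 0.0493. Just outside it lay dlc2 at -0.29 with an adjusted p of 0.0510, next to snx12 at 0.27 with an adjusted p of 0.0511. The counts rested on both 1 h arrays: without the opi10+ array at 1 h 419 genes rose and 488 fell, and without the opi10- array 396 and 449.

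**Figure D1:**
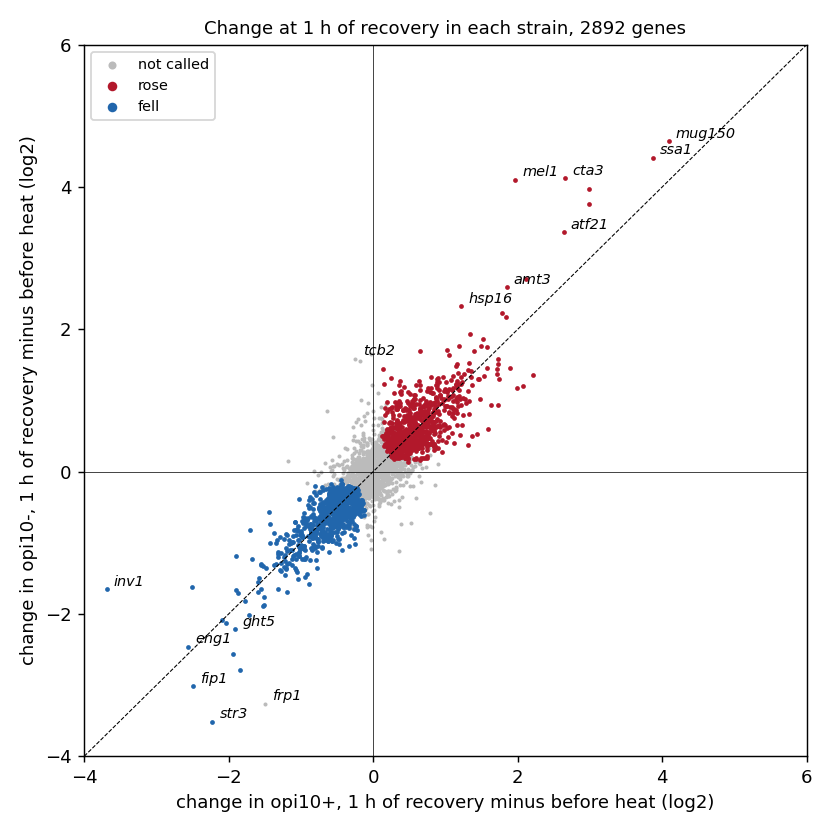
Change of each of 2892 genes from before heat to 1 h of recovery in opi10+ (horizontal) against opi10- (vertical), both on the log2 scale, 1 array per strain and condition. Red points are the 741 genes that rose, blue points the 789 that fell, grey points the rest, and the dashed line marks equal change. Most points with a large change lie near the line. mug150 and ssa1 are at the upper right. At the lower left are str3 and inv1, which lie away from the line because their changes differed between the strains.

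The 14 largest rises were led by mug150 and by ssa1, which encodes a cytosolic HSP70 chaperone. The signal of mug150, a gene named for upregulation in meiosis, was 363 and 141 before heat and 5554 and 4376 at 1 h. The signal of ssa1 was 522 and 200 before heat and 6968 and 4831 at 1 h. Both genes were an order of magnitude higher in both strains at 1 h, with no overlap between the groups. mug150 rose by 4.36 ± 0.20 on the log2 scale, 20.6-fold, with an adjusted p of 0.000441. ssa1 rose by 4.14 ± 0.22, 17.6-fold, with an adjusted p of 0.000441. Both had been higher at 43C: the difference of 1 h from 43C was -0.91 ± 0.20 for mug150 and -0.93 ± 0.22 for ssa1, with adjusted p of 0.0068 and 0.0092.

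The next largest rises included genes of RNA processing, ion transport and protein repair. nab3, an RNA-binding protein gene, went from 784 and 296 to 5746 and 4822, a rise of 3.47 ± 0.30. cta3, which encodes a cation-transporting ATPase, went from 331 and 87.2 to 1849 and 2097, a rise of 3.39 ± 0.33. pcm2 encodes a methyltransferase that repairs damaged aspartate residues. Its signal went from 144 and 55.9 to 1271 and 1231, a rise of 3.37 ± 0.24. All 3 genes had higher signals in opi10+ than in opi10- before heat, and at 1 h the strains were close to each other. mel1, the alpha-galactosidase gene, went from 67.5 and 22.6 to 370 and 889, a rise of 3.03 ± 0.44. Its change was 1.97 in opi10+ and 4.10 in opi10-, and without the opi10- array before heat the fitted rise was 2.18. At 3 h the signal of mel1 was higher in both strains, at 1168 and 1735.

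Regulators of the stress response were also among the 14. atf21, a bZIP transcription factor gene of the stress response, went from 45.1 and 10.2 to 409 and 344, a rise of 3.00 ± 0.18. Its signal before heat was low, and the size of the rise was 3.72 with a pseudocount of 1 and 2.05 with one of 64. pyp2, whose product dephosphorylates and so switches off Sty1, went from 453 and 201 to 1748 and 1533, a rise of 2.41 ± 0.15. Both genes were far below their 43C signals, which were 1340 and 1014 for atf21 and 6775 and 5245 for pyp2. Relative to the median gene, the difference of 1 h from 43C was -2.41 ± 0.18 for atf21 (adjusted p 0.00011) and -2.23 ± 0.15 for pyp2 (adjusted p 8.5e-05).

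The signal of the ammonium transporter gene amt3 was 1720 and 1255 at 1 h, against 532 and 169 at the start, 1115 and 679 at the end of the heat shock, and 649 and 402 by 3 h. It rose by 2.22 ± 0.19 against before heat and lay 1.83 ± 0.19 above 3 h, while relative to the median gene it differed from 43C by 0.01 ± 0.19 (adjusted p 0.963). The small heat shock protein gene hsp16 went from 3733 and 1669 to 7946 and 8465, a rise of 1.77 ± 0.28. It stayed at 7018 and 7673 at 3 h, and 1 h and 3 h differed by 0.09 ± 0.28 (adjusted p 0.81). rhp7, a nucleotide excision repair gene, went from 1191 and 769 to 3169 and 2696, a rise of 1.69 ± 0.12. pta1, a subunit of the factor that cleaves and polyadenylates pre-mRNA, went from 885 and 845 to 3811 and 2126, a rise of 1.79 ± 0.21. The others of the 14 were mug121 with a rise of 2.01 ± 0.18 and mfs2, a major facilitator family transporter gene, with 2.00 ± 0.20.

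Of the 100 genes that rose at least 2-fold, 42 were lower at 1 h than at 43C, and 29 were higher. The background for this comparison was 877 of 2892 genes lower (30.3%) and 1015 higher (35.1%), or 65.4% in either direction; on the deposited scale, where most genes gained signal from 43C, 211 were lower and 2272 higher. Against 3 h, 82 of the 100 were higher at 1 h and 2 were lower, where 681 of all genes (23.5%) were higher and 677 (23.4%) lower, or 47.0% in either direction. All 3 comparisons share the 1 h arrays, and the 100 genes were chosen for high values on them.

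The 14 largest falls held iron uptake and sugar genes. fip1 encodes the iron permease of the cell surface and fio1 the multicopper ferroxidase that works with it. The signal of fip1 began at 987 and 1464, stood at 21.2 and 23.2 when the heat ended, and had reached 169 and 188 after 1 h of recovery and 502 and 1507 after 3 h. That of fio1 began at 1004 and 1583, stood at 204 and 209 when the heat ended, and had reached 257 and 292 after 1 h and 592 and 1624 after 3 h. Both were low at 43C and at 1 h in each strain, and at 3 h only opi10- was back at its level before heat. fip1 fell by 2.75 ± 0.40 on the log2 scale, to 0.148 times its level before heat, with an adjusted p of 0.00224, and fio1 fell by 2.25 ± 0.39 with an adjusted p of 0.00424. In the annotation order of S. pombe genes fip1 and fio1 are neighbours.

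The siderophore transporter genes str1 and str3 fell with them. str3 went from 141 and 573 to 14.5 and 35.9, a change of -2.87 ± 0.71 (adjusted p 0.0157), and str1 from 1324 and 2202 to 380 and 358, a change of -2.32 ± 0.46 (adjusted p 0.0065). Both calls depended on single arrays: the adjusted p of str3 was 0.0523 without the opi10+ array at 1 h, 0.0828 without the opi10- array before heat and 0.119 without the opi10- array at 1 h, and that of str1 was 0.0642 without the last of these. str3 was dim at 1 h, and its change was -3.56 with a pseudocount of 1 and -1.96 with one of 64. The ferric reductase gene frp1 went from 204 and 704 to 66.5 and 66.8, a difference of -2.38 ± 0.89 that missed the threshold (adjusted p 0.0603), and that passed it without normalization (adjusted p 0.0365).

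Of the sugar genes, inv1, ght5, hxk1 and gal1 were among the 14 falls, whereas mel1 was among the 14 rises. inv1 encodes invertase, which splits sucrose. Its signal went from 6608 and 1540 to 549 and 556 at 1 h, and was 6547 and 7600 by 3 h. The strains started more than 4-fold apart and met at 1 h. The change of inv1 was -2.67 ± 0.50 (adjusted p 0.00542), and its adjusted p was 0.0526 without the opi10+ array at 1 h. Without the opi10+ array before heat the fitted change was -1.72. ght5, the main high-affinity glucose transporter gene, went from 4684 and 5178 to 1222 and 1203 and was at 5388 and 6878 by 3 h, a change of -2.06 ± 0.14 at 1 h (adjusted p 0.000441). The hexokinase gene hxk1 went from 3426 and 3337 to 911 and 1063, a change of -1.79 ± 0.11. gal1, the galactokinase gene, held 1164 and 925 at 43C, near its 1178 and 999 before heat, and dropped to 279 and 265 at 1 h, a change of -2.09 ± 0.23.

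Cell separation, G1/S control and RNA export each had a gene among the 14 falls. eng1, the glucanase that dissolves the division septum, went from 1223 and 1230 to 204 and 246, a change of -2.52 ± 0.41. rep2, an activator of the G1/S transcription complex MBF, began at 790 and 950, stood at 29.9 and 38.4 when the heat ended and had 233 and 264 after 1 h of recovery, a change of -1.87 ± 0.10. At 1 h rep2 lay 1.50 ± 0.10 above 43C (adjusted p 9.0e-05). mlo3, an RNA-annealing protein of mRNA export, went from 5276 and 5569 to 1483 and 1679, a change of -1.79 ± 0.09. The proteasome subunit gene pam1 went from 1863 and 2016 to 508 and 717, a change of -1.78 ± 0.13. aif1, of the apoptosis-inducing factor family, fell by 2.07 ± 0.26 and mug182 by 2.08 ± 0.32.

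Of the 103 genes that fell at least 2-fold, 70 were lower at 1 h than at 3 h and 1 was higher, beside the 23.4% and 23.5% of all genes. Against 43C, 44 were lower at 1 h and 20 were higher, beside 30.3% and 35.1%. The 103 genes were chosen for low values on the same 1 h arrays, so the counts are given as a description.

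**Figure D2:**
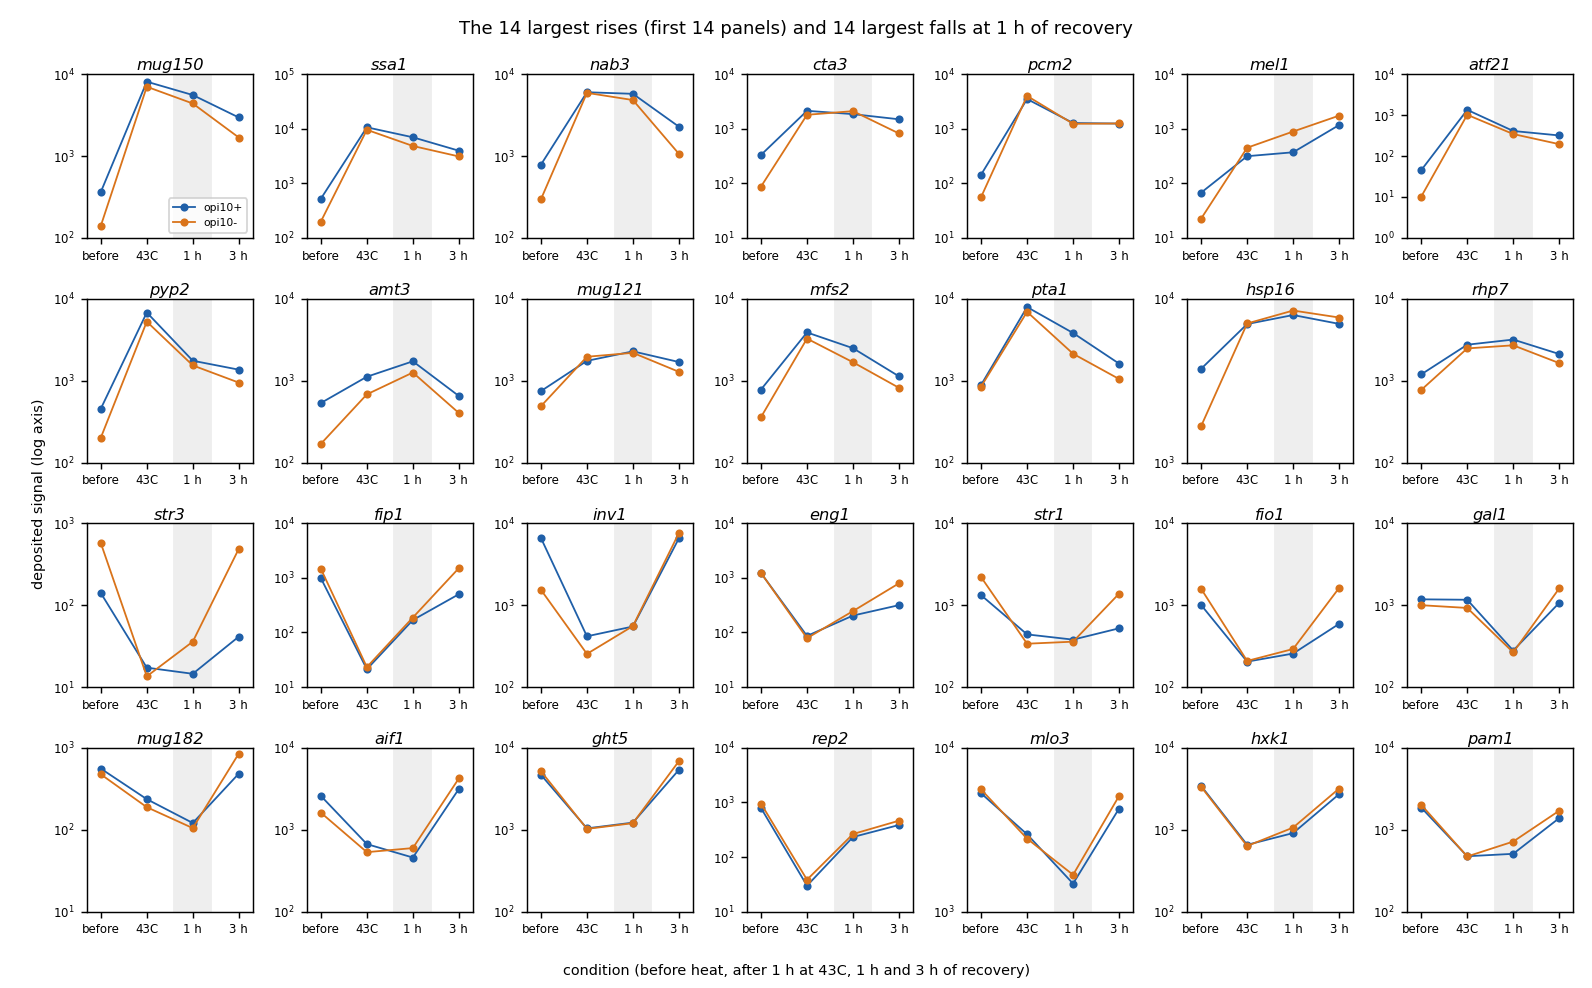
Deposited signal (log axis, with its own range in each panel) of the 14 genes with the largest rises and the 14 with the largest falls, in the 4 conditions, with 1 array per point and opi10+ in blue and opi10- in orange. The grey band marks 1 h of recovery. Many rises peak at 43C and remain high at 1 h, and in each of the 14 falls the signal at 3 h is above that at 1 h.

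Among the chaperones, large rises at 1 h were seen in a few members. In all 6 HSP70 genes both arrays at 1 h lay above both arrays before heat, as in 38.2% of all genes. Of these 6 genes 2 were called as risen and none as fallen. Besides ssa1 this was pss1, an HSP110-type relative, at 5151 and 5878 before heat and 10003 and 8084 at 1 h, a rise of 0.76 ± 0.18 (adjusted p 0.0119). Its adjusted p was 0.0988 without the opi10+ array at 1 h, and without the opi10+ array before heat its change was 0.49. The ribosome-associated sks2 was at 8422 and 8583 before heat and 9012 and 9359 at 1 h, a difference of 0.09 ± 0.08, and ssa2 differed by 0.09 ± 0.10. bip1, the HSP70 of the endoplasmic reticulum, was at 4509 and 4852 before heat and 7341 and 6054 at 1 h, a difference of 0.56 ± 0.23 that missed the threshold (adjusted p 0.08). The mitochondrial ssc1 differed by 0.17 ± 0.09 (adjusted p 0.137). These genes are bright, and saturation was not assessed, so their changes may be understated.

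Of 9 HSP70 partner genes 2 rose and 2 fell (22.2% each), where 25.6% and 27.3% of all genes did. In 7 of the 9 both arrays at 1 h lay above both arrays before heat, and in 2 both lay below. psi1, an HSP40 gene, went from 1567 and 1245 to 5026 and 3493, a rise of 1.62 ± 0.14, and bag102, a nucleotide exchange factor of the BAG family, fell by 0.89 ± 0.11. Of 7 genes of the HSP90 system 1 rose, sti1, which links HSP70 to HSP90. It went from 2836 and 3075 to 6520 and 3810, a rise of 0.84 ± 0.21 (adjusted p 0.0169). This rested mainly on opi10+: the adjusted p was 0.104 and the change 0.48 without the opi10+ array at 1 h, and the adjusted p was 0.0877 without the opi10+ array before heat. The cytosolic chaperonin, a ring that folds actin and tubulin, went the other way. Of its 8 subunits 6 fell and none rose, with a median change of -0.41. Relative to the median gene their median was -0.46 at 43C, and at 3 h it was -0.44. cct8 went from 3223 and 3774 to 1878 and 1972, a change of -0.72 ± 0.09. The mitochondrial chaperonin gene mcp60 rose by 0.53 ± 0.12, with an adjusted p of 0.0921 without the opi10+ array at 1 h and 0.0523 without the one before heat.

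General stress genes were raised in part, and unequally in the strains. Of 31 core stress genes 12 rose and 6 fell, against 25.6% and 27.3% of all genes. Their median change was 0.42 beside -0.0047 for all tested genes. At 43C, relative to the median gene, the median had been 0.95, and at 3 h it was 0.72. Against 43C 17 of the 31 were lower at 1 h and 6 higher, beside 30.3% and 35.1% of all genes. Against 3 h 10 were lower and 4 higher, beside 23.4% and 23.5%. On the deposited scale 14 were lower than at 43C and 8 higher, and 10 were lower than at 3 h and 0 higher. Besides cta3, atf21 and pyp2, the members that rose included the glycerol dehydrogenase gene gld1 at 0.96 and the aldehyde dehydrogenase gene atd3 at 0.82. gst2, a glutathione transferase gene, fell by 1.54 ± 0.20, from 2380 and 2468 to 657 and 1173. The list's median change was 0.04 in opi10+ and 0.85 in opi10-. The median difference of the opi10- array from the opi10+ array over the list was -0.49 before heat and -0.04 at 1 h. The change was larger in opi10- in 25 of 31 genes, beside 1389 of all 2892 genes. This was not particular to stress genes. It also held for 21 of 22 autophagy, 14 of 16 TCA cycle and 34 of 46 amino acid synthesis genes, but for 2 of 29 genes of 60S assembly. With 1 array per strain and condition these differences were not tested. The counts moved with single arrays: 19 rose and 3 fell without the opi10+ array before heat, 5 and 5 without the opi10- array before heat, 7 and 3 without the opi10+ array at 1 h, and 4 and 4 without the opi10- array at 1 h. In the deposited values, not normalized, 8 rose and 6 fell.

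Of 24 genes of the Sty1 pathway 13 rose and 1 fell, with a median of 0.42. At 43C the median had been 1.11 above the level before heat, and at 3 h it was 0.33. csx1, an RNA-binding protein that stabilises atf1 mRNA, went from 567 and 466 to 1452 and 1205, a rise of 1.38 ± 0.12. pyp1, like pyp2 a tyrosine phosphatase that acts on Sty1, went from 3320 and 2292 to 5682 and 5501, a rise of 1.10 ± 0.11. srk1, a kinase activated by Sty1, rose by 1.18 ± 0.25, with an adjusted p of 0.0767 without the opi10- array at 1 h and a change of 0.69 without the opi10- array before heat. Without the opi10- array at 1 h 8 genes of the list rose and none fell.

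Ribosome assembly genes were mostly above their level before heat. Of 29 genes for assembly of the large, 60S, subunit 22 rose and 1 fell, with a median of 0.60. dbp10, an RNA helicase gene, began at 1284 and 1217, stood at 1012 and 1241 when the heat ended, reached 2671 and 2606 after 1 h of recovery and was back at 1372 and 1026 after 3 h. rlp24 encodes an assembly factor that resembles a ribosomal protein, and it likewise began at 1672 and 1788, stood at 1412 and 1503 when the heat ended, reached 3451 and 3599 after 1 h and was at 1476 and 1088 after 3 h. In both genes the 1 h arrays lay above all 6 others. dbp10 rose by 1.16 ± 0.14 (adjusted p 0.00136) and rlp24 by 1.08 ± 0.15 (adjusted p 0.00174). The RNA helicase gene dbp2 went from 4238 and 4516 to 8578 and 8599, a rise of 1.07 ± 0.16, and was at 2981 and 2019 by 3 h. The 1 gene that fell was nop52, at -0.50.

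The small subunit processome, the particle that makes the first cuts in the pre-ribosomal RNA for the 40S subunit, behaved alike in its counts, with 11 rises and no falls among 18 genes and a median of 0.62. bms1, its GTPase, went from 1235 and 1264 to 2831 and 2485, a rise of 1.16 ± 0.15. utp10 went from 2534 and 2402 to 4947 and 4904, a rise of 1.03 ± 0.16, and utp20 from 2721 and 2651 to 5086 and 5150, a rise of 0.99 ± 0.11. A further list held 10 genes for proteins of small nucleolar RNA particles and for related factors such as rvb1, rvb2, shq1 and gar2. Of these 3 rose (30%) and 2 fell (20%), where 25.6% and 27.3% of all genes did. Among the rises nhp2 lost its call on the deposited scale (adjusted p from limma 0.0816). The nucleolin-like gar2 had the largest rise at 0.96 ± 0.13.

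RNA polymerases I and III make the ribosomal and transfer RNAs. Of 34 genes for their subunits and factors 21 rose and 3 fell, with a median of 0.47. rpc34, a polymerase III subunit gene, went from 939 and 888 to 2513 and 2409, a rise of 1.51 ± 0.16 (adjusted p 0.000842). The polymerase I subunit gene rpa12 went from 1277 and 1385 to 2676 and 2702, a rise of 1.11 ± 0.13, and ker1 from 666 and 709 to 1401 and 1552, a rise of 1.12 ± 0.09. rrn3, the initiation factor of polymerase I, rose by 1.00 ± 0.23, with an adjusted p of 0.106 without the opi10- array at 1 h and 0.0696 without the opi10+ array before heat.

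These 3 groups were above 3 h as well. 28 of 29 large subunit genes, 17 of 18 processome genes and 22 of 34 polymerase genes were higher at 1 h than at 3 h, against 23.5% of all genes. At 3 h the first 2 lists had medians of -0.59 and -0.55 relative to before heat, and the polymerase genes -0.18. At 43C, relative to the median gene, the 3 medians were 0.37, 0.35 and 0.40. On that scale 8 of 29, 8 of 18 and 9 of 34 genes were higher at 1 h than at 43C, where 35.1% of all genes were. In these lists 1, 1 and 5 genes were lower. In the deposited values 26, 17 and 31 were higher, where 2272 of all 2892 genes were. Without the opi10+ array at 1 h 12 large subunit genes, 6 processome genes and 14 polymerase genes rose, and without the opi10- array at 1 h 9 large subunit genes and 14 polymerase genes rose.

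The structural proteins of the ribosome did not show this. Of 112 cytosolic ribosomal protein genes 3 rose and 1 fell, which are 2.68% and 0.893% against 25.6% and 27.3% of all genes. Their median change was 0.02, and -0.040 with centring on the median of the other genes, where 1 rose and 2 fell. At 43C their median was -0.29, and 75 of the 112 were higher at 1 h than at 43C, where 35.1% of all genes were. The 4 called genes were near the threshold: the rises were rps2202 at 0.54 ± 0.16, rpl102 at 0.34 ± 0.10 and rpl3002 at 0.27 ± 0.09, and the fall was rpl4101 at -0.47 ± 0.15. Each lost its call when one or the other 1 h array was left out, with adjusted p between 0.11 and 0.237. Ribosomal protein genes are bright and have near-identical copies, so probe sets may not tell copies apart. Of 24 translation factor genes 6 rose (25.0%) and 2 fell (8.33%), so the share that rose was near that of all genes. sum3, a DEAD-box helicase of translation initiation, rose by 0.60 ± 0.08. When one or the other 1 h array was left out, 1 rose and 1 fell, and with the other centring 1 rose and 2 fell and the list's median of 0.11 was -0.0036.

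**Figure D3:**
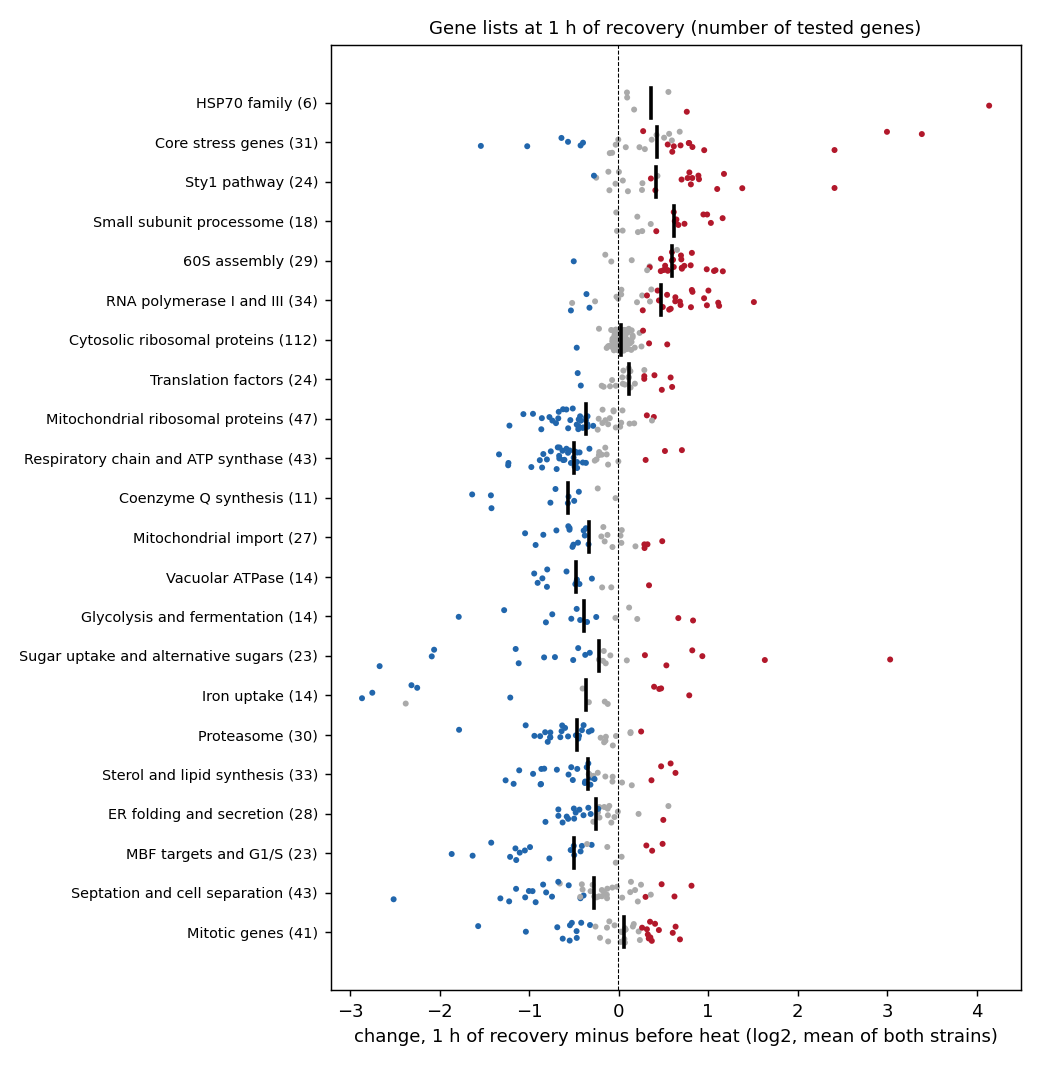
Change of each tested gene of 22 lists from before heat to 1 h of recovery (log2, mean of both strains), with genes that rose in red, genes that fell in blue and the others in grey. Black bars are list medians and the dashed line is the median of all tested genes. Ribosome assembly and polymerase lists lie to the right, with medians of 0.47 to 0.62, and mitochondrial, proteasome and vacuolar lists to the left.

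Genes of the respiratory chain, of coenzyme Q synthesis and of the mitochondrial ribosome were mostly below their level before heat, and those of import and the TCA cycle were so in part. Falls were called in 31 of 43 genes of the respiratory chain and the ATP synthase and rises in 3, at a median of -0.50. cox8, a cytochrome c oxidase subunit gene, went from 2417 and 2672 to 985 and 1075, a change of -1.34 ± 0.10 (adjusted p 0.000523). cox6, of the same enzyme, went from 3030 and 3462 to 1231 and 1464, a change of -1.23 ± 0.08. The ATP synthase gene atp18 went from 2771 and 2855 to 1085 and 1318, a change of -1.24 ± 0.10. By enzyme, 9 of 11 cox genes, 6 of 7 qcr genes of complex III and 12 of 17 atp genes fell. Relative to before heat the list's median was -0.48 at 43C and -0.07 at 3 h, and 35 of the 43 were lower at 1 h than at 3 h, where 23.4% of all genes were.

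Coenzyme Q carries electrons to complex III. Of 11 genes for its synthesis 9 fell and none rose, with a median of -0.57, and 6 fell without the opi10+ array at 1 h. At 43C, relative to the median gene, the list's median had been -0.95. coq9 went from 1831 and 1930 to 637 and 677, a change of -1.64 ± 0.08, and had 1672 and 1782 at 3 h. coq3 went from 1152 and 1169 to 406 and 541, a change of -1.43 ± 0.11. ppt1, the fission yeast gene for the p-hydroxybenzoate polyprenyl transferase of this pathway, went from 1592 and 1579 to 597 and 703, a change of -1.42 ± 0.13.

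Mitochondrial ribosomal protein genes had 29 falls and 2 rises among 47, at a median of -0.37. mrpl44 went from 529 and 567 to 209 and 272, a change of -1.22 ± 0.09. In the deposited values 19 fell, and 17 did with one or the other 1 h array left out. Of 27 mitochondrial import genes 14 fell and 4 rose, at a median of -0.34. At 43C, relative to the median gene, this median had been -0.56. Of the 27 genes 17 were higher at 1 h than at 43C and 3 lower, beside 35.1% and 30.3% of all genes. mia40, which drives oxidative folding in the intermembrane space, fell by 1.05 ± 0.09, and tim9 by 0.93 ± 0.09. Without the opi10+ array at 1 h 8 import genes fell and none rose, and on the deposited scale 15 fell and 1 rose. Of 16 TCA cycle genes 6 fell and 1 rose, led by idh1, an isocitrate dehydrogenase subunit gene, at -1.04 ± 0.13, and 9 were not called.

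Glycolytic genes were mostly lower, and genes of sugar uptake moved both ways. Of 14 genes of glycolysis and fermentation 9 fell and 2 rose, at a median of -0.39. hxk2, the other hexokinase gene, went from 7815 and 8017 to 3123 and 3253, a change of -1.28 ± 0.11. pgi1, the glucose-6-phosphate isomerase gene, went from 9276 and 8563 to 5899 and 4734, a change of -0.81 ± 0.13. The 2 that rose were adh4, an alcohol dehydrogenase gene, from 3222 and 2622 to 4942 and 5001, a rise of 0.83 ± 0.10, and fbp1, the gluconeogenic fructose bisphosphatase, at 0.67. Without the opi10+ array before heat 5 fell. Of 23 genes of sugar uptake and other sugars 11 fell and 6 rose, or 7 and 5 without the opi10+ array at 1 h. Of 8 hexose transporter genes 4 fell and 2 rose: ght5 fell, as given above, and ght7 rose by 1.63.

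Of 14 iron uptake genes 5 fell and 4 rose, which are 35.7% and 28.6% beside 27.3% and 25.6% of all genes, so the counts do not set the list apart. The falls were fip1, fio1, str1, str3 and sib2, all genes of uptake or siderophore synthesis. The rises included fep1, the repressor of iron uptake, at 0.79, the vacuolar transporter gene abc3 at 0.47 and the copper-transporting ATPase gene ccc2 at 0.40. Without the opi10- array at 1 h 2 fell and 2 rose. In the deposited values 7 fell and 3 rose, and with median centring 7 and 2.

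Proteasome genes were mostly below their level before heat. Falls were called in 21 of 30 and a rise in 1, at a median of -0.46, while at 43C, relative to the median gene, it was -0.03. Against 43C, again relative to the median gene, 21 of the 30 were lower at 1 h, where 30.3% of all genes were, and against 3 h 17 were, where 23.4% were. In deposited signal the list's median was 1608 and 1585 at 43C and 1733 and 1791 at 1 h, so it was slightly higher at 1 h, and on that scale 8 of the 30 were called lower than at 43C and 15 higher. pts1, a core particle subunit gene, was at 3347 and 3760 before heat and 1506 and 1755 at 1 h, a change of -1.04 ± 0.08, and pup1 at 4081 and 4337 and 1867 and 2134, a change of -0.94 ± 0.08. Of the 11 rpn genes of the regulatory particle 8 fell and none rose. Of the 6 rpt ATPase genes 4 fell and 1 rose, rpt4 at 0.25.

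Some of the membrane lipid and secretion genes were lower as well. Of 33 sterol and lipid genes 21 fell and 4 rose, at a median of -0.34. At 43C, relative to the median gene, this median had been -0.51. cho1, of phospholipid methylation, went from 2991 and 3070 to 1132 and 1360, a change of -1.26 ± 0.09, and erg28, a scaffold of sterol synthesis, from 3697 and 3740 to 1360 and 1773, a change of -1.17 ± 0.17. Without the opi10+ array at 1 h 11 fell and 2 rose. Of 28 genes of the endoplasmic reticulum 14 fell and 1 rose, led by sec61, the translocation channel, at -0.82 ± 0.08. Without the opi10- array at 1 h 7 fell. Of 14 vacuolar ATPase genes 11 fell and 1 rose, at a median of -0.48. At 43C, relative to the median gene, this median had been -0.90. Of the 14 genes 9 were higher at 1 h than at 43C and 2 lower, beside 35.1% and 30.3% of all genes. The proton pump subunit genes vma4 and vma16 fell by 0.94 ± 0.10 and 0.91 ± 0.08.

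Genes of G1/S were mostly lower. Of 23 genes of the MBF complex and of its G1/S programme 16 fell and 3 rose, at a median of -0.50. ssb2, a subunit of the single-stranded DNA-binding protein RPA, went from 1483 and 1660 to 541 and 562, a change of -1.63 ± 0.10. cdt1, which licenses replication origins, went from 252 and 235 to 74.8 and 102, a change of -1.42 ± 0.22, and the RPA subunit gene ssb3 fell by 1.21 ± 0.13. The rises were the transcription factor gene res1 at 0.31, the activator gene rep1 at 0.49 and ssb1, the large RPA subunit, at 0.37, so the 3 RPA subunits did not move together. With one or the other 1 h array left out 8 of the 23 fell and none rose. Without the opi10- array before heat 9 fell and 1 rose.

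The 43 genes of septation and cell separation had a median change of -0.27. Of them 15 fell (34.9%), 4 rose (9.30%) and 24 were not called, beside 27.3% and 25.6% of all genes that fell and rose. With one or the other 1 h array left out 9 fell and 2 rose. etd1, of the septation initiation network, went from 405 and 463 to 145 and 195, a change of -1.32 ± 0.12. cdc8, the tropomyosin of the contractile ring, went from 4642 and 5057 to 1725 and 2232, a change of -1.22 ± 0.10. Of 41 mitotic genes 12 rose and 11 fell, shares near those of all genes, or 3 and 8 without the opi10- array at 1 h. slp1, an activator of the anaphase-promoting complex, had the largest fall of the list, from 977 and 956 to 324 and 368, a change of -1.57 ± 0.21, and it neighbours eng1 in the annotation order. cdc25, the phosphatase that triggers entry into mitosis, fell by 0.69 ± 0.10.

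**Figure D4:**
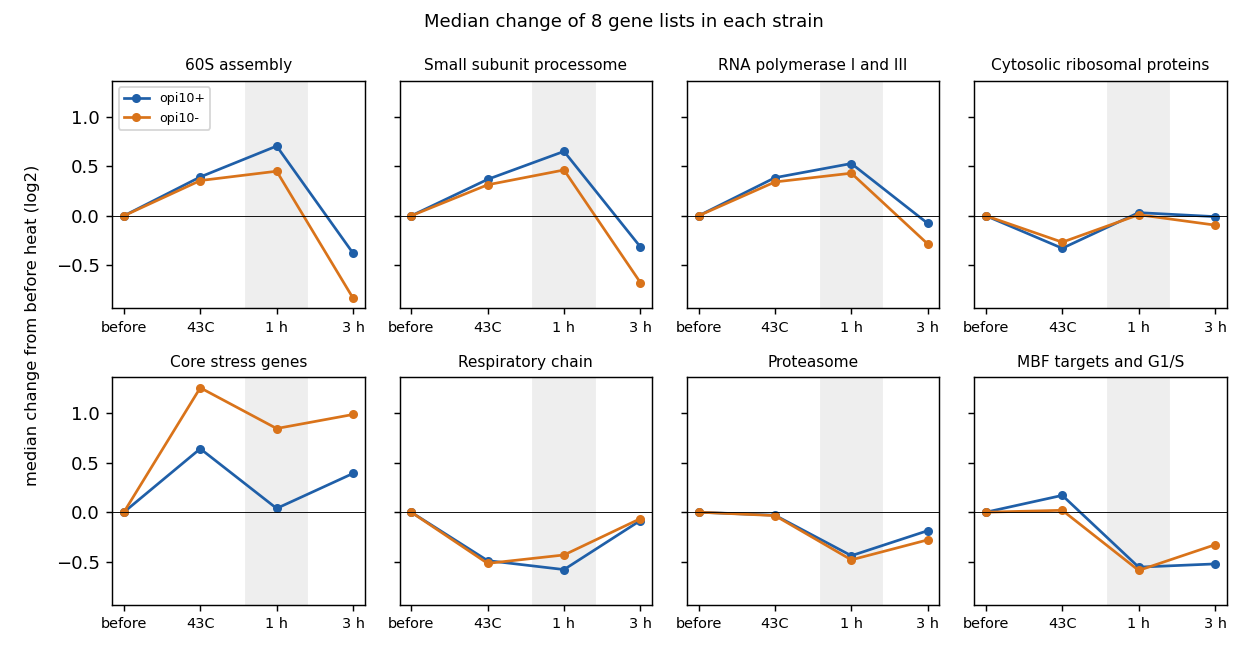
Median change from before heat (log2) of 8 gene lists over the heat shock and the recovery, opi10+ in blue and opi10- in orange, with the grey band at 1 h. The medians of the ribosome assembly lists are highest at 1 h and below the start at 3 h. Of their genes 8 of 29 (60S) and 8 of 18 (processome) were called higher at 1 h than at 43C. Among all genes this share was 35.1%. The median of the proteasome genes is lowest at 1 h relative to the median gene, and core stress genes are at 0.04 in opi10+ and 0.85 in opi10- at 1 h.

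A state particular to early recovery was looked for as genes called higher, or lower, at 1 h than in each of the other 3 conditions. There were 153 genes highest at 1 h (5.29%) and 139 lowest at 1 h (4.81%). In the deposited signals the 1 h arrays were above all 6 others for 150 of the 153, but below all 6 others for 40 of the 139, the arrays at 43C having the low medians given above. The genes lowest at 1 h are thus lowest relative to the median gene. The count of genes highest at 1 h was 60 without the opi10+ array at 1 h and 51 without the opi10- array, and that of genes lowest at 1 h was 56 without the one or the other.

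By list, 6 of 29 large subunit assembly genes, 6 of 18 processome genes and 6 of 34 polymerase genes were highest at 1 h, where 5.29% of all genes were. On the deposited scale 5, 6 and 4 of these were called again. With median centring the large subunit gene cgr1 and the processome gene utp4 were called again. The other large subunit and processome genes highest at 1 h, dbp2, dbp10, rlp24, arx1, puf6, utp20, nop14, mra1, esf2 and fcf2, were not. Of the polymerase genes rpc34, rpa43, rpc11 and rrn7 were called again, and of all 153 genes 92 were. Of 30 proteasome genes 11 were lowest at 1 h, as were 8 of 47 mitochondrial ribosomal protein genes, 7 of 43 respiratory genes, 7 of 23 sugar genes and 5 of 14 glycolytic genes, where 4.81% of all genes were. On the deposited scale few of these were called again. They were 3 of the 11 proteasome, 1 of the 7 respiratory, 1 of the 7 sugar and 2 of the 5 glycolytic genes. None of the 8 mitochondrial ribosomal protein genes was. Of 31 core stress genes 3 were lowest at 1 h, and of 91 mug genes 5. In these 2 lists 3 of the 3 and 4 of the 5 were called again on the deposited scale.

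The gene with the clearest maximum at 1 h was mcp4, by the smallest of its 3 differences. Its signal began at 112 and 114, stood at 45.5 and 51.3 when the heat ended, reached 327 and 360 after 1 h of recovery and was 163 and 78.4 after 3 h. urb2, a ribosome assembly gene, began at 1214 and 1220, stood at 397 and 474, reached 2383 and 2538 and ended at 1420 and 1046. los1, which exports transfer RNA from the nucleus, began at 1657 and 1632, stood at 512 and 671, reached 3322 and 3179 and ended at 1617 and 1640. In all 3 genes 43C was the lowest condition and 1 h the highest, in both strains. Relative to before heat mcp4 rose by 1.22 ± 0.22, urb2 by 1.09 ± 0.14 and los1 by 1.05 ± 0.10, and relative to 43C by 1.32 ± 0.22, 1.59 ± 0.14 and 1.66 ± 0.10.

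The amino acid transporter gene aat1 began at 3140 and 3002, stood at 2379 and 2317 when the heat ended, reached 6888 and 7568 after 1 h and was 4630 and 3147 after 3 h. It rose by 1.31 ± 0.18 against before heat and stood 0.95 ± 0.18 above 3 h, where its adjusted p was 0.0591 without the opi10- array at 1 h. nth1, an endonuclease of base excision repair, went from 450 and 358 to 925 and 876, a rise of 1.12 ± 0.09. dhc1, the dynein heavy chain gene known for nuclear movement in meiosis, went from 102 and 71.1 to 224 and 218, a rise of 0.92 ± 0.13. The others of the 8 were mug45 with 1.05 ± 0.16 and spo3, a gene of spore formation, with 1.07 ± 0.14.

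Among the 8 genes with the clearest minimum at 1 h were gal1, mug182, mlo3 and aif1, whose falls are given above. The difference of 1 h from 43C was -2.72 ± 0.23 for gal1 and -1.48 ± 0.09 for mlo3, and that from 3 h was -2.21 ± 0.23 and -1.58 ± 0.09. nhp6, an HMG-box chromatin protein gene, began at 1824 and 1536, stood at 2406 and 2439 when the heat ended, dropped to 693 and 1114 after 1 h and was 1888 and 2300 after 3 h. gal1, mlo3 and nhp6 were lowest at 1 h in deposited signal too, in both strains. nhp6 fell by 1.01 ± 0.20 relative to before heat and differed from 43C by -2.15 ± 0.20. klp8, a kinesin gene, fell by 1.48 ± 0.22, and gal7, of galactose use, by 1.12 ± 0.20. On the deposited scale the difference from 43C missed the threshold for klp8 (adjusted p 0.139), gal7 (0.382) and aif1 (0.523). klp8 lost its difference from 3 h without the opi10- array at 1 h (adjusted p 0.0761), and aif1 its difference from 43C without the opi10+ array at 43C (0.0552) or at 1 h (0.0619). sib2, of siderophore synthesis, went from 368 and 243 to 124 and 129, a change of -1.21 ± 0.34, and lost its call without any 1 of the 4 arrays compared, with adjusted p of 0.0596 to 0.137.

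**Figure D5:**
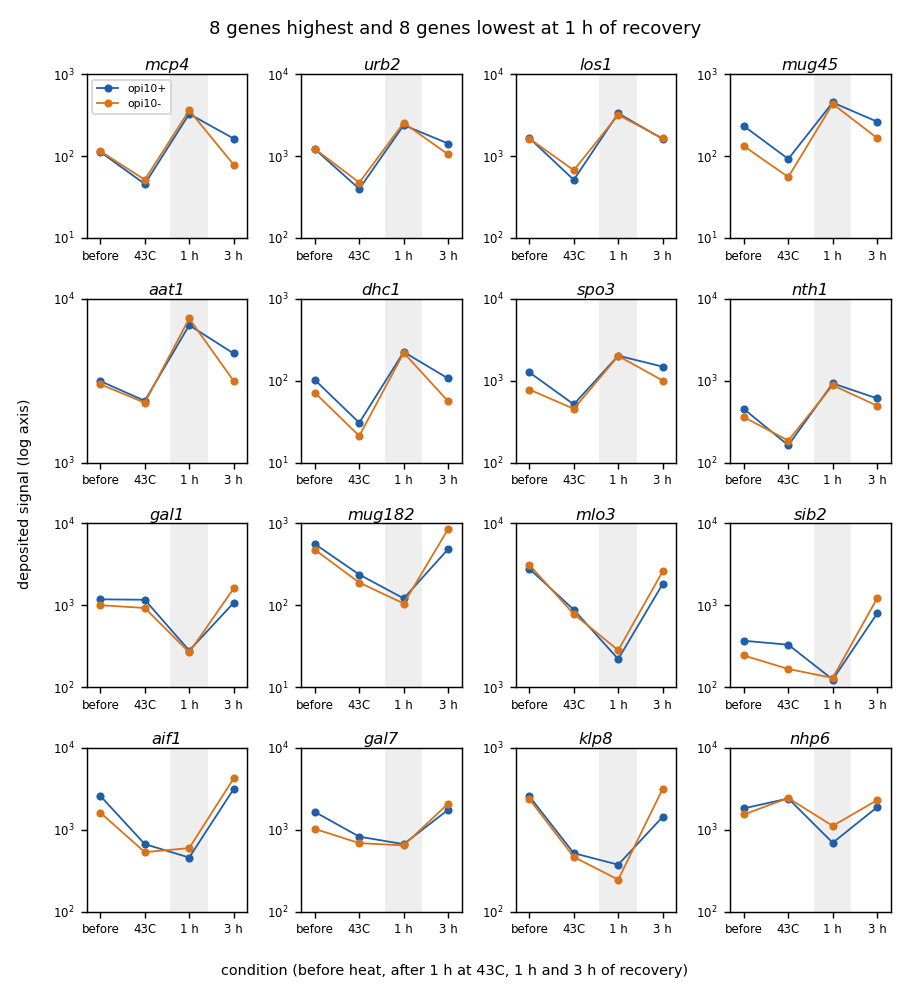
Deposited signal (log axis, with its own range in each panel) of the 8 genes with the clearest maximum and the 8 with the clearest minimum at 1 h of recovery in the 4 conditions, with 1 array per point and opi10+ in blue and opi10- in orange. The 1 h points, in the grey band, lie above all others for the first 8 genes, whereas for genes such as aif1 the points at 43C and 1 h are close.

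The size of the response differed between the strains for few genes, and with 1 array per strain and condition none of these differences was tested. The signed change was at least 2-fold higher in opi10- than in opi10+ in 18 genes (0.622%) and at least 2-fold lower in 9 (0.311%). Across the 2892 genes the changes of the 2 strains had a Pearson correlation of 0.873, given as a description, since genes are not independent replicates. The 6 highest differences were those of mel1, inv1, tcb2, rds1, ppk31 and mug108. In inv1 the opi10- change was the smaller fall, -1.65 against -3.69. In tcb2, rds1 and mug108 the strains were further apart before heat than at 1 h. The signal of tcb2 went from 698 and 280 to 596 and 944, that of rds1, a stress-responsive gene, from 3745 and 1121 to 2954 and 3247, and that of mug108 from 326 and 66.4 to 196 and 184. ppk31, a protein kinase gene, went from 141 and 109 to 149 and 507, so its strains came apart at 1 h. The 6 lowest differences were those of frp1, str3, apc15, mde6, sap1 and mug116, of which apc15 and mug116 were dim, with signals of 32 or less on every array.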

How the data were processed

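RNA of 2 strains in 4 conditions was hybridised to 8 Affymetrix yeast arrays, which also carry Saccharomyces cerevisiae probe sets. Per the labels' protocols, extraction used phenol and chloroform and labelling a 3' IVT kit. The authors deposited intensity values on a linear scale for 10928 probe sets. How probes were summarised or arrays scaled the sources used here do not give, and saturation was not assessed. The number of arrays limits the precision.

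Genes came from the platform annotation, updated to the symbols of the ASM294v3 gene table, which renamed 113 and also gave the order of neighbours. 1 S. pombe gene was named for 2914 probe sets (2896 genes) and none for 5177. The brightest probe set of each gene was kept if its mean signal exceeded 6.04, the upper quartile (75th percentile) over S. cerevisiae probe sets, which left 2892 genes.

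log2(intensity + 16) was quantile normalized and fitted in limma 3.58.1 (R 4.3.3) with condition and strain as terms over all 8 arrays, leaving 3 residual degrees of freedom. The strain term is the pairing: the 2 arrays of a strain share its genotype. The residual spread, and so each standard error, holds the difference in response between the strains together with noise. Tests were two-sided and p-values were adjusted by Benjamini-Hochberg over all 2892 genes. The script was tested on simulated data. Leaving out an array leaves 1 array in its condition, which is then assumed to vary like the others. The alternatives were a filter at the 95th percentile or none, the deposited scale, pseudocounts of 1 and 64, centring on the median without ribosomal protein genes, an intensity trend with robust moderation, no strain term, the mean of all probe sets of a gene, the 4 compared arrays alone, and each array left out.

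The comparison and the 41 gene lists were chosen with earlier results of these data known, and members with unrelated roles were removed. After the values were seen, ppt1 was moved to coenzyme Q synthesis, tbp1 was taken out of the proteasome and arb1 out of the 60S list, and the subsets, the lists to describe and the count of extreme deposited signals were chosen. Named genes were the 14 largest called rises and falls without overlap between groups, the 8 clearest genes highest and lowest at 1 h, up to 4 of the largest called changes of a described list, the 6 highest and 6 lowest strain differences, the HSP70 genes and the genes nearest the threshold. Further list members (gld1, atd3, nop52, fbp1, ght7, fep1, abc3, ccc2, rpt4, res1, rep1 and ssb1) were named after their values were seen. No promoter description was made.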

Additional observations from a re-analysis of the deposited data

Results flagged for a closer look

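In 8 genes the change at 1 h, after normalization, went in opposite directions in the 2 strains and differed by at least 2-fold. In the deposited signals given above, ppk31 was higher at 1 h in both strains, by little in opi10+. The difference was not tested, since each strain and condition had 1 array. The change in opi10- minus that in opi10+, on the log2 scale, was 1.83 for tcb2, 1.74 for rds1, 1.69 for ppk31 and 1.49 for mug108, and -1.47 for apc15, -1.37 for mde6, -1.24 for sap1 and -1.13 for mug116. In signal, opi10+ first, mug108 went from 326 and 66.4 to 196 and 184, mde6 from 182 and 152 to 339 and 117, and sap1 from 330 and 376 to 464 and 250. Neither apc15 nor mug116 exceeded a signal of 32 on any array.

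Probe sets without a gene name here also changed. On the deposited scale, 79 unnamed probe sets were at least 2-fold higher at 1 h than before heat in both strains and 58 at least 2-fold lower, of 2967 above the filter. Among S. pombe probe sets with 1 gene these counts were 78 and 63 of 2910, and among S. cerevisiae probe sets 0 and 0 of 648.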

How the results depend on the processing

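Of 173 named genes that were called, 132 kept their call and direction under every alternative, and without the opi10+ or the opi10- array at 1 h 30 and 34 lost it. With any 1 array left out, 396 to 730 genes were higher and 449 to 784 lower at 1 h than before heat, 737 to 1054 and 653 to 920 against 43C, and 307 to 706 and 295 to 740 against 3 h, while 51 to 165 genes were highest and 56 to 137 lowest at 1 h. Without the opi10- array of 3 h 350 and 332 genes differed from 3 h and 83 were lowest at 1 h. Without the strain term (no replicate block) 719 genes rose and 767 fell against before heat, and it changed none of these counts by over 1.5 times. On the deposited scale 2272 genes were higher and 211 lower than at 43C, 395 were higher than at 3 h and 34 were lowest at 1 h. By extreme deposited signal, added after seeing the data, 40 were lowest at 1 h. Of the genes called highest and lowest at 1 h, 92 and 29 were called again on the deposited scale, and 92 and 118 with median centring. The response was at least 2-fold higher in opi10- in 30 genes on the deposited scale and 28 with a pseudocount of 1, and at least 2-fold lower in 18 with a pseudocount of 1 and 4 with one of 64. Medians that turned sign were those of cytosolic ribosomal proteins (-0.040) and translation factors (-0.0036) with median centring, DNA replication and repair (0.016) on the deposited scale, histones (0.049 without the opi10+ array before heat, lowest -0.072 without the opi10- one) and the HSP90 system (0.18 without the opi10- array at 1 h, lowest -0.13 without the opi10+ one). mug108, uncalled at 0.10, was at -0.54 without the opi10- array before heat and at 0.75 without the opi10+ one. The cause of each change was not tested.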

Other observations

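After 1 h of recovery 27 of 78 splicing genes had risen and 22 had fallen, which are 34.6% and 28.2% beside 25.6% and 27.3% of all genes, or 15 and 17 without the opi10+ array at 1 h and 15 and 13 without the opi10- array. Of 13 Sm and Lsm proteins, which form rings on small nuclear RNAs, 10 fell and none rose, with a median of -0.46. At 43C, relative to the median gene, their median had been -0.85. lsm6 went from 1913 and 1939 to 629 and 904, a change of -1.46 ± 0.12 in limma (adjusted p 0.000535). Of 42 prp and cwf genes, which act in the spliceosome, 21 rose and 6 fell, with a median of 0.25, and cwf24 went from 350 and 298 to 915 and 839, a rise of 1.37 ± 0.20. These subsets were chosen after their values were seen. Of 23 silencing and heterochromatin genes 10 rose and 4 fell, or 5 and 0 without the opi10- array at 1 h and 12 and 2 with median centring. With all arrays the shares of this list were 43.5% and 17.4%. chp1, the chromodomain protein of the RNAi effector complex, went from 300 and 220 to 624 and 607, a rise of 1.08 ± 0.10. The telomere-linked helicase gene tlh2 went from 295 and 682 to 1199 and 1635, a rise of 1.64 ± 0.24, or 0.81 with the mean of all its probe sets. It belongs to a family of near-identical copies.

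Of 91 genes named for upregulation in meiosis 30 rose and 15 fell, or 22 and 4 without the opi10+ array at 1 h and 34 and 10 on the deposited scale. With all arrays the shares were 33.0% and 16.5%, beside 25.6% and 27.3% of all genes. mug106 went from 22.1 and 24.6 before heat to 614 and 520 at 43C and 165 and 109 at 1 h, a rise of 1.58 ± 0.21, or 0.96 with a pseudocount of 64. Of 38 mating and meiosis entry genes 12 rose and 7 fell, or 2 and 4 without the opi10+ array at 1 h. With all arrays the shares of the mating list were 31.6% and 18.4%. ste11, the master regulator of mating, went from 2683 and 2095 to 4819 and 3726, a rise of 0.88 ± 0.09, whereas the pheromone gene mfm2 went from 87.2 and 86.0 to 32.9 and 32.9, a change of -1.29 ± 0.22, or -0.77 with a pseudocount of 64. Of 46 amino acid synthesis genes 7 rose and 7 fell, or 4 and 10 with median centring and 3 and 5 without the opi10- array at 1 h. With all arrays the shares of the amino acid list were 15.2% each, below those of all genes. arg7 went from 639 and 444 to 1285 and 1188, a rise of 1.22 ± 0.14, and ser2, the phosphoserine phosphatase gene, from 881 and 1098 to 299 and 332, a change of -1.70 ± 0.24. The phosphatase gene pho4, which is controlled by thiamine, went from 8653 and 9103 to 3491 and 4398, a change of -1.21 ± 0.13.

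In the annotation order of S. pombe genes 1689 neighbouring pairs were tested. Both genes of 483 pairs were called, and 243 of these changed in the same direction. Of all genes 52.9% were called, 25.6% upward and 27.3% downward, so these counts do not set neighbours apart. In 14 pairs both changed at least 2-fold, 10 of them in the same direction. Of all genes 3.46% were called and rose at least 2-fold, and 3.56% fell so. Whether 14 of 1689 pairs exceeds what these shares give was not tested. Among the 10 were fip1 and fio1, pcm2 and mel1, mug150 and srk1, slp1 and eng1, and rhp16 and rhp7. The pairs that went in opposite directions were cta3 and ibp1, zpr1 and mug182, mrpl44 and cnp3, and oca2 and gnr1.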
